A study of Mus musculus with 12 samples.

Results

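The genes described here were the adult globin genes Hba-a1, Hba-a2, Hbb-bs and Hbb-bt and the erythroid heme enzyme gene Alas2, which made up 5 of the 18211 genes measured in mouse MC38 tumors. They were picked by symbol because erythroid transcripts were low in tumors treated with anti-PD-1 or with PB-020 plus anti-PD-1, so their levels in those groups against the vehicle are given as a description, with no test. RNA was sequenced from 12 tumors, 3 in each of 4 groups, grown from MC38 mouse colorectal adenocarcinoma cells injected under the skin of C57BL/6 mice, which the study's methods give as young females. CK was the vehicle group. The PB-020 group received PB-020, an inhibitor of the IGF-1 receptor (IGF-1R), by daily oral gavage, and the anti-PD-1 group received RMP1-14, an antibody that blocks the T cell checkpoint receptor PD-1, by repeated intraperitoneal injection. The PB-020+anti-PD-1 group, called the combination below, received both agents. All 4 groups carried the same implanted cell line in an animal with its own immune system and circulation. Because the RNA came from whole ground tumors, it held RNA of the tumor cells, the stroma, the vessels and any blood within them. In such bulk samples, fewer cells of a type and less RNA per cell cannot be told apart. No source states that each library came from a separate mouse, so the p-values below measure only the spread between these samples.

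Hemoglobin of adult red blood cells is built from alpha chains and beta chains, each holding an iron-bearing heme group. Red cell precursors transcribe the globin genes at very high levels, and young red cells (reticulocytes) in the blood still carry globin mRNA after the nucleus is lost. Heme synthesis starts with 5-aminolevulinate synthase, which has an erythroid form encoded by Alas2 and a form used in most tissues encoded by Alas1. RNA of a whole tumor usually holds some globin mRNA from the blood in its vessels.

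The sequences of these genes bear on how their values can be read, because each globin pair consists of near-identical copies. On mouse build GRCm38.p6, in the RefSeq annotation, Hba-a1 (gene ID 15122) lay on chromosome 11 from 32283672 to 32284486 and Hba-a2 (gene ID 110257) from 32296492 to 32297310, both on the plus strand and 12005 bases apart. Hbb-bs (gene ID 100503605) lay on chromosome 7 from 103826523 to 103827928 and Hbb-bt (gene ID 101488143) from 103812524 to 103813923, both on the minus strand and 12599 bases apart. Alas2 (gene ID 11656) lay on the X chromosome from 150547417 to 150570622 on the plus strand. Within either pair, the coding sequences, taken from the GENCODE transcripts of the same build, differed at 1 base, with the same translation. Counted from the first base of the start codon, the difference was C381T from Hba-a1 to Hba-a2 over 429 coding bases (99.8% identical) and C417T from Hbb-bs to Hbb-bt over 444 coding bases (99.8% identical). The stretches around these bases are shown with the differing base in capitals.
Hba-a1, coding bases 351 to 411: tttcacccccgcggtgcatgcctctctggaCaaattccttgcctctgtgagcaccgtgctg
Hba-a2, coding bases 351 to 411: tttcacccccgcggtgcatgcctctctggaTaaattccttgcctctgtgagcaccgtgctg
Hbb-bs, coding bases 387 to 444: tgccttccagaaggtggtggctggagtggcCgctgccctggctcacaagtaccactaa
Hbb-bt, coding bases 387 to 444: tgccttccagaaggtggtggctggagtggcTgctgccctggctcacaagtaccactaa

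A single coding read of 150 bases, the length sequenced here, could have come from either copy wherever it missed the differing base. Within the coding sequence this held for 231 of 280 possible read positions of the alpha pair (82.5%) and for 267 of 295 of the beta pair (90.5%). Reads were sequenced in pairs, and a mate that covered a differing base could settle the origin. The share of read pairs that fitted both copies was not computed and would be lower. The expected counts, which RSEM estimates by dividing such shared reads between genes, carried the mark of this division. Hba-a1 and Hba-a2 each had a whole-number count in 0 of 12 libraries, within a tolerance of 0.02, whereas their sum was whole in 12 of 12. Hbb-bs and Hbb-bt were each whole in 2 of 12 libraries and their sum in 12 of 12, and Alas2, which has no such copy, was whole in 12 of 12. The summed alpha and summed beta values therefore did not depend on the division, and the split within a pair is uncertain.

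The 250 bases before each RefSeq start site are printed because the 5 genes moved together across the tumors. Capitals mark matches, on either strand, to 4 short motifs found in many erythroid promoters: GATAA (bound by GATA factors), CACCC (bound by Krüppel-like factors), CCAAT (the box of that name) and TATAA (the TATA box). Adjoining or overlapping matches appear as 1 longer run of capitals, as in TTATAA before Alas2, where a forward and a reverse match share bases.
Hba-a1, chr11:32283422-32283671, plus strand: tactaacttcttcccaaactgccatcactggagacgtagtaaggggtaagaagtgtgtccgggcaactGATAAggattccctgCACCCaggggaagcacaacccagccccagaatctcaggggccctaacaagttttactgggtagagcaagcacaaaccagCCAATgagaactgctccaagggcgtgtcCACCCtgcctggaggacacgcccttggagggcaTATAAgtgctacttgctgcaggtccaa
Hba-a2, chr11:32296242-32296491, plus strand: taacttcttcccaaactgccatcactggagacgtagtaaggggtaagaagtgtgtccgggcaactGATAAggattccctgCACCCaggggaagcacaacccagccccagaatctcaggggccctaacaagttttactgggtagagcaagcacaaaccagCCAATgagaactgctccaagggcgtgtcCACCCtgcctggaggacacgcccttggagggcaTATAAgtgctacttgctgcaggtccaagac
Hbb-bs, chr7:103827929-103828178, minus strand: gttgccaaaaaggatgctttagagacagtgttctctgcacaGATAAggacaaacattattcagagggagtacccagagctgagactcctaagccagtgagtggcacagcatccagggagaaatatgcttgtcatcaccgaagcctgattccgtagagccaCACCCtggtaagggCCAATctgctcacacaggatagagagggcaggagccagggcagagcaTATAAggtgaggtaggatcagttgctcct
Hbb-bt, chr7:103813924-103814173, minus strand: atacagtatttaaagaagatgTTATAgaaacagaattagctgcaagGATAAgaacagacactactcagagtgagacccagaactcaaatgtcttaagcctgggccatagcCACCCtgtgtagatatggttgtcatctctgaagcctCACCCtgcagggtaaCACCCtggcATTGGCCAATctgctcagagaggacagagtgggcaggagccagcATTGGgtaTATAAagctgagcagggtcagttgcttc
Alas2, chrX:150547167-150547416, plus strand: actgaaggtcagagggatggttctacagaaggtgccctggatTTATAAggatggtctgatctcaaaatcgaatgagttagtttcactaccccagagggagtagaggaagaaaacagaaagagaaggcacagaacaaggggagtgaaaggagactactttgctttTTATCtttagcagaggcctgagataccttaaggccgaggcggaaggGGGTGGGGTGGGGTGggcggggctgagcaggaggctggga

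Each of the 4 globin genes held all 4 motifs in this window, which 0.968% of the 32851 RefSeq promoters of the same length did. A TATAA match on the forward strand lay 27 to 23 bases before the start of Hba-a1 and 29 to 25 bases before that of Hbb-bs, and 3.52% of promoters had such a match between 40 and 16 bases before the start. Alas2 held GATAA and CACCC, as did 10.1% of promoters, and no CCAAT. Its TATAA match lay 207 to 203 bases before the start. Singly the motifs were common, with GATAA in 22.6%, CACCC in 52.0%, CCAAT in 33.8% and TATAA in 22.8% of promoters. The alpha windows shared an unbroken run of 247 bases, whereas the longest shared run of the beta windows was 14 bases. A match describes letters in this window and is no evidence of a bound factor.

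Depth was even, with 16545394 to 17217035 expected counts per library (median 16927043), and all 5 genes were among the 13563 genes that passed the filter on low counts. Libraries were not all alike in other ways. The vehicle tumor CK 3 had high summed FPKM (fragments per kilobase of transcript and of library total) of the neutrophil markers, at 427 against 9.19 to 40.04 in the other 11 libraries, and of the adipocyte markers, at 301 against 34.5 to 71.0. The tumor anti-PD-1 1 had 719 FPKM of skeletal muscle markers against 15.5 to 84.9 elsewhere. The median changes of the 5 genes and some gene calls are given with and without these libraries below. Group means, spreads, ratios, correlations and most list counts are given only with them. Most colorectal epithelial markers were close to absent in every library, with 2 to 17 counts of Epcam, 0 to 4 of Krt8 and 0 to 2 of Cdx2, although Cdh1 had 114 to 285 counts and Lgals4 106 to 195.

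The alpha globin genes Hba-a1 and Hba-a2 encode the alpha chain of adult hemoglobin. Hba-a1 measured 528, 477 and 196 FPKM in CK 1 to CK 3, and 175, 334 and 143 FPKM in the PB-020 tumors 1 to 3. In the anti-PD-1 tumors it measured 136, 35.3 and 68.9 FPKM, and in the combination tumors 48.8, 59.3 and 41.0 FPKM. Every anti-PD-1 and combination tumor lay below the lowest vehicle tumor, while PB-020 and vehicle tumors overlapped. The means were 400 ± 179 FPKM (SD, n = 3) for CK, 217 ± 103 for PB-020, 80.1 ± 51.4 for anti-PD-1 and 49.7 ± 9.17 for the combination, or 54.3%, 20.02% and 12.4% of the vehicle mean. Hba-a1 ranked between 145 and 351 among the 18211 genes by FPKM in the vehicle tumors and between 1430 and 2181 in the combination tumors.

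Hba-a2 had the same order at lower levels. It measured 361, 293 and 116 FPKM in the CK tumors, 116, 231 and 100 FPKM in the PB-020 tumors, 86.8, 21.6 and 38.3 FPKM in the anti-PD-1 tumors and 35.6, 36.0 and 31.4 FPKM in the combination tumors. The 3 combination tumors were close together (34.3 ± 2.55 FPKM, SD, n = 3), whereas the anti-PD-1 tumors spread 4.03-fold from lowest to highest. Hba-a1 made up 56.7% to 64.2% of the alpha FPKM across the 12 libraries, a share that rests on how RSEM divided reads. Summed over the pair, alpha globin was 657 ± 305 FPKM in CK, 366 ± 174 with PB-020, 129 ± 85.2 with anti-PD-1 and 84.0 ± 11.5 with the combination (SD, n = 3 each).

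The beta globin genes Hbb-bs and Hbb-bt encode the beta chains of adult hemoglobin in this mouse strain. Hbb-bs measured 583, 450 and 335 FPKM in the CK tumors, 181, 436 and 187 FPKM in the PB-020 tumors, 144, 40.8 and 88.9 FPKM in the anti-PD-1 tumors and 60.6, 77.8 and 48.4 FPKM in the combination tumors. It had the highest FPKM of the 5 genes in CK 1 and CK 3, and PB-020 2 lay between 2 of the vehicle tumors. The group means were 456 ± 124 FPKM (SD, n = 3), 268 ± 145, 91.1 ± 51.5 and 62.3 ± 14.8, the last 3 being 58.8%, 19.98% and 13.7% of the vehicle mean.

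Hbb-bt was the minor beta transcript in every library, at 6.39% to 13.6% of the beta FPKM. Its values were 77.5, 70.8 and 28.9 FPKM with the vehicle, 16.7, 41.0 and 18.2 FPKM with PB-020, 11.3, 2.78 and 10.6 FPKM with anti-PD-1 and 6.49, 10.3 and 5.32 FPKM with the combination. The lowest tumor of all, anti-PD-1 2, was also the lowest for the other 3 globin genes and for Alas2. The means of Hbb-bt were 59.1 ± 26.3, 25.3 ± 13.6, 8.20 ± 4.71 and 7.38 ± 2.62 FPKM (SD, n = 3 each).

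Alas2 catalyzes the first step of heme synthesis in red cell precursors and was far less abundant than the globins. It measured 5.91, 4.74 and 3.33 FPKM in the CK tumors, 1.54, 3.42 and 1.13 FPKM in the PB-020 tumors, 1.52, 0.23 and 0.42 FPKM in the anti-PD-1 tumors and 0.50, 0.37 and 0.48 FPKM in the combination tumors. These levels rested on 102 to 186 expected counts per library in the vehicle group, 35 to 105 with PB-020, 7 to 47 with anti-PD-1 and 11 to 15 with the combination, so counting error was largest for this gene. Its means were 4.66 ± 1.29, 2.03 ± 1.22, 0.723 ± 0.696 and 0.450 ± 0.070 FPKM (SD, n = 3 each). The group means of each of the 5 genes ran in the same order, CK, PB-020, anti-PD-1 and combination.

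**Figure D1:**
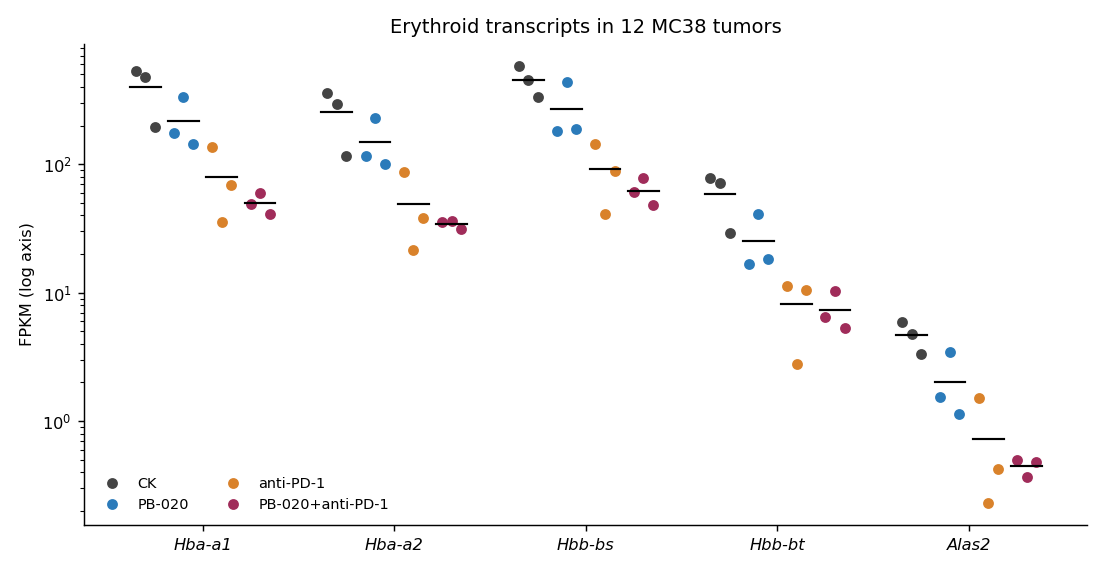
FPKM on a log axis of the 4 globin genes and Alas2, where each point is 1 tumor and each black line a group mean of 3 tumors. The anti-PD-1 and combination tumors lie below all vehicle tumors for each gene, from 528 to 196 FPKM in CK against 59.3 to 41.0 FPKM in the combination for Hba-a1, and anti-PD-1 2 is the lowest point of each gene.

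Against the vehicle, the fitted log2 changes with anti-PD-1 were -2.29 ± 0.58 (standard error, SE) for Hba-a1, -2.36 ± 0.60 for Hba-a2, -2.30 ± 0.52 for Hbb-bs, -2.82 ± 0.61 for Hbb-bt and -2.67 ± 0.59 for Alas2. Their median was -2.36, or 19.4% of the vehicle level, against a median of 0.00047 over all genes tested. With the combination they ran from -2.86 ± 0.54 for Hbb-bs to -3.36 ± 0.63 for Alas2, with a median of -2.99, or 12.6% of the vehicle level. Both comparisons chose the genes and share the vehicle libraries. In each of them 5 of 5 genes had treated tumors entirely below the vehicle tumors, a pattern that 15.2% of all genes tested showed for anti-PD-1 and 21.2% for the combination, and nothing is read from these counts. Among the 13563 genes tested, 19 had a change below that of Hbb-bs with the combination, the other 4 genes described here among them, and 32 had a change below that of Hba-a1 with anti-PD-1. The choice of the genes stated no threshold but rested on their fall in these comparisons, so nothing is read from these ranks either. Leaving out anti-PD-1 1, the tumor with muscle transcripts, moved the median change with anti-PD-1 to -3.07, and leaving out CK 3 as well moved it to -3.43. With the combination the median was -3.31 without CK 3, -2.73 without CK 1 and -3.31 without both doubted libraries.

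PB-020 alone was not used in choosing the genes, although the vehicle libraries it is compared with were. All 5 genes had lower fitted levels with PB-020 than with the vehicle, and no member passed the test. The log2 changes were -0.87 for Hba-a1 (95% interval -2.12 to 0.37), -0.78 for Hba-a2 (-2.06 to 0.50), -0.76 for Hbb-bs (-1.88 to 0.37), -1.21 for Hbb-bt (-2.48 to 0.05) and -1.19 for Alas2 (-2.39 to 0.02). By edgeR's quasi-likelihood test, unadjusted p-values ran from 0.0525 for Alas2 to 0.201 for Hba-a2, and Benjamini-Hochberg adjusted p-values over all genes from 0.874 to 0.896. The median change was -0.87 beside -0.0038 for all genes tested, and the intervals included both no change and log2 reductions beyond -2 for every gene but Hbb-bs. The PB-020 and CK tumors overlapped for 5 of 5 genes, while 6.47% of all genes had PB-020 tumors entirely below the vehicle tumors. In this comparison 0 of 13563 genes passed an adjusted p of 0.05 in edgeR, 741 (5.46%) had an unadjusted p under 0.05, and DESeq2 called 6. PB-020 2 was the highest PB-020 tumor for each of the 5 genes, and without it the median change was -1.33.

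Whether PB-020 added to anti-PD-1 was addressed by the combination against anti-PD-1, 2 groups that the choice of genes had set against the vehicle and not against each other. The log2 changes were -0.71 for Hba-a1 (95% interval -2.07 to 0.66), -0.53 for Hba-a2 (-1.97 to 0.91), -0.56 for Hbb-bs (-1.77 to 0.64), -0.17 for Hbb-bt (-1.63 to 1.301) and -0.69 for Alas2 (-2.17 to 0.79). None passed the test, with unadjusted p-values of 0.268 to 0.804 and adjusted p-values of 0.845 to 0.973 (edgeR). The groups overlapped for 5 of 5 genes, and 5.71% of all genes had combination tumors entirely below the anti-PD-1 tumors. In edgeR 0 of 13563 genes passed an adjusted p of 0.05, 984 (7.26%) had an unadjusted p under 0.05, and DESeq2 called 1. The direction of the median rested on anti-PD-1 1, the highest tumor of its group for each of the 5 genes. The median change was -0.56 with it and 0.13 without it. Without that tumor Hba-a1 and Hbb-bs stayed slightly negative, at -0.09 and -0.07, and the other genes turned positive. The spread was smaller in the combination group than in the anti-PD-1 group for each gene, with coefficients of variation of 7.44% to 35.5% against 56.6% to 96.3%, a description from 3 tumors a group that was not tested.

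Against PB-020, the combination was lower by -1.77 (Hbb-bt) to -2.17 (Alas2) on the log2 scale, with a median of -2.12, again without a test because the combination libraries chose the genes. For 5 of 5 genes the combination tumors lay entirely below the PB-020 tumors, as did 16.5% of all genes tested. The anti-PD-1 tumors lay entirely below the PB-020 tumors for the 4 globin genes and overlapped them for Alas2, beside 11.8% of all genes. The sum of the 2 single-agent changes had a median of -3.17 over the 5 genes, beside the median of -2.99 measured with the combination. This sum depends on anti-PD-1 1, without which the median change with anti-PD-1 alone was -3.07 instead of -2.36. The sum was not computed without that tumor, so how near the 2 medians lie is not read as a result. The difference between the measured and summed changes ran from 0.17 ± 0.81 (SE) for Hba-a1 to 1.05 ± 0.85 for Hbb-bt on the log2 scale and was not tested.

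**Figure D2:**
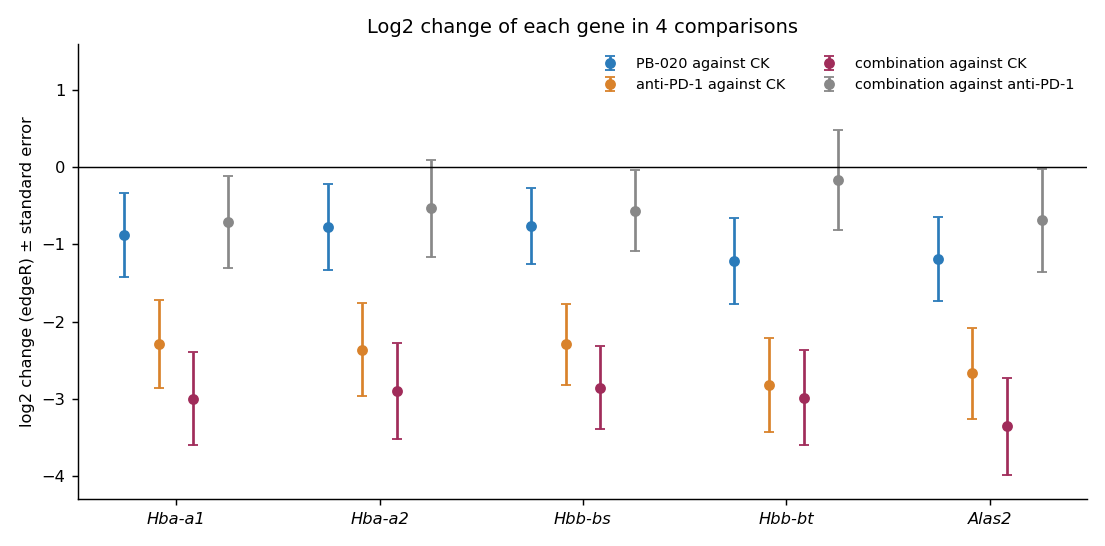
Log2 change of each gene with its standard error (edgeR, 3 tumors per group) in 4 comparisons named in the key. Changes against the vehicle lie between -0.76 and -1.21 for PB-020, -2.29 and -2.82 for anti-PD-1, and -2.86 and -3.36 for the combination, and the gray points for the combination against anti-PD-1 lie between -0.17 and -0.71.

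The balance between the chains was next compared. Summed over both pairs, the 4 globins took 0.0691% of all counts in CK 1 (95% exact binomial interval 0.0679% to 0.0704%), 0.0570% in CK 2 and 0.0307% in CK 3. They took 0.0215%, 0.0463% and 0.0199% in the PB-020 tumors, 0.0172%, 0.00450% and 0.00929% in the anti-PD-1 tumors, and 0.00663%, 0.00832% and 0.00559% in the combination tumors. The lowest share, in anti-PD-1 2, had an interval of 0.00419% to 0.00483%. Such intervals cover counting error only, and the tumors of a group differed by far more than they do. From the lowest to the highest library the share spanned 15.4-fold.

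The ratio of beta to alpha globin FPKM moved much less, between 0.676 in CK 2 and 1.17 in CK 3. Its group means were 0.862 ± 0.266 in CK, 0.790 ± 0.096 with PB-020, 0.796 ± 0.119 with anti-PD-1 and 0.821 ± 0.094 with the combination (SD, n = 3 each), so the groups overlapped. CK 3, which carried the neutrophil and adipocyte transcripts, was the only library with more beta than alpha FPKM. Alas2 had 15.6, 15.2 and 19.9 counts per 1000 globin counts in the CK tumors, 12.9, 13.4 and 10.4 in the PB-020 tumors, 16.2, 9.19 and 8.30 in the anti-PD-1 tumors and 13.4, 7.99 and 15.8 in the combination tumors. The PB-020 values lay below the vehicle values, and those of the other 2 groups overlapped them. With 35 to 105 Alas2 counts per PB-020 tumor, counting error is large beside this gap, which was not tested. With the copies of each pair summed before fitting, alpha globin had log2 changes of -0.84, -2.32 and -2.96 and beta globin of -0.80, -2.35 and -2.87 for PB-020, anti-PD-1 and the combination against the vehicle.

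**Figure D3:**
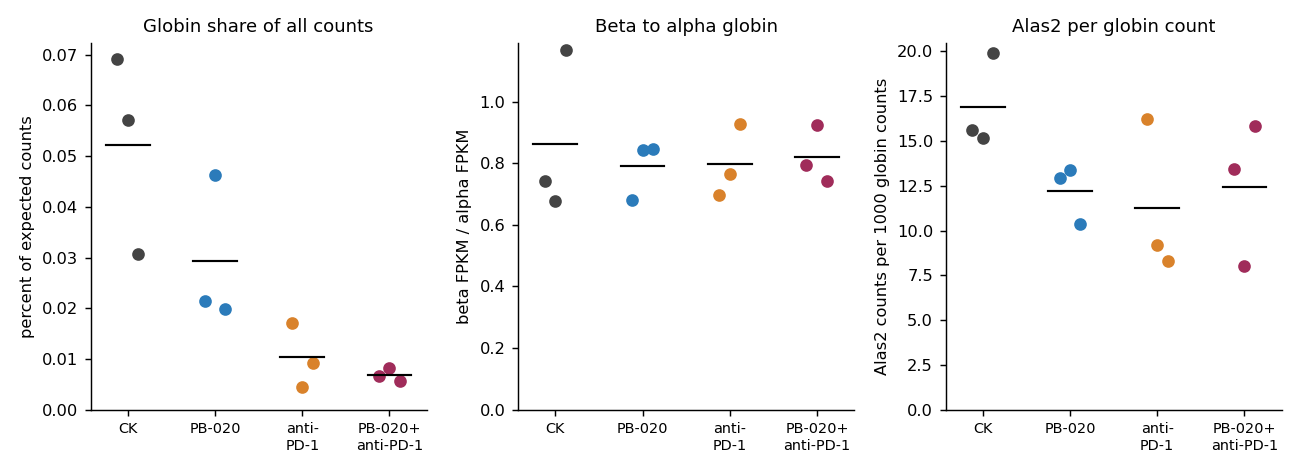
Globin share of all expected counts in percent, the ratio of beta to alpha globin FPKM, and Alas2 counts per 1000 globin counts, with 1 point per tumor and a black line at each group mean. The globin share is 0.0307% to 0.0691% in CK and 0.00559% to 0.00832% in the combination, whereas the beta to alpha ratio lies between 0.676 and 1.17.

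Across the 12 libraries, the log2 CPM values (library-scaled counts) of the 10 pairs of these genes had Pearson correlations of 0.939 (Hbb-bt with Alas2) to 0.995 (Hba-a1 with Hba-a2). With the group means taken away they were 0.719 to 0.988, so that tumors of 1 group that were high for one of the genes were high for the others. These values describe 12 libraries, and the pairs of near-identical copies share reads. Outside the 5 genes, the 10 genes whose levels were most like their mean over the 12 libraries included Rftn2 (r = 0.910) and Nos3 (0.896), the endothelial nitric oxide synthase gene. Aplp2, Rnf185, Slc26a6, Dusp22, Trak2 and Copa followed, at 0.881 to 0.870. The 5 genes were chosen for low levels with anti-PD-1 and the combination, so genes also low there tend to rank high. Once the group means were removed, Rftn2 had 0.50 and Nos3 0.47, and the genes named after them had 0.03 (Trak2) to 0.74 (Dusp22). With the group means taken away, the 10 nearest genes were all different and included Mmp17 (0.958) and Tmem182 (0.956), and Mmp17 had a negative correlation over the 12 libraries as they stood, at -0.25.

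Other erythroid genes were then examined in 3 lists holding membrane and skeleton, cytosolic, and transcription factor and receptor genes, of which 40 of 44 symbols were in the table and 26 could be tested. The 5 genes described above are not among them. Most did not pass the test. Of the 26, 4 were lower and 1 higher with anti-PD-1, where 4.08% and 4.18% of all genes tested were lower and higher at an adjusted p of 0.05 (edgeR). With the combination 5 were lower and 2 higher, where 9.60% and 8.35% of all genes were. No gene passed with PB-020 alone or between the combination and anti-PD-1. The median log2 changes were -0.06 with PB-020, -0.11 with anti-PD-1 and -0.23 with the combination. The lower genes included Bpgm, Mkrn1 and Ldb1 in both comparisons and Aqp1 with the combination, and the higher genes were Isg20 in both and Ube2l6 with the combination. Without CK 2, or with only the groups compared in the fit, 0 of them were lower with anti-PD-1, and without anti-PD-1 3 only 1 was. Without anti-PD-1 1, 8 were lower with the combination.

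The named genes changed by far less than the globins. Bpgm, which makes the 2,3-bisphosphoglycerate that lowers the oxygen affinity of hemoglobin, fell by 0.48 on the log2 scale with the combination (adjusted p = 0.016), from 6.66 ± 0.471 to 4.78 ± 0.311 FPKM (SD, n = 3 each). Mkrn1 fell by 0.43 and Ldb1, a cofactor of GATA factors expressed in many tissues, by 0.41. Aqp1, the water channel of red cells and of vessel endothelium, fell by 0.52 (adjusted p = 0.018), from 219 ± 30.3 to 151 ± 18.0 FPKM. Isg20 and Ube2l6 rose by 0.56 and 0.78, and both are known to be induced by interferon. Without CK 1 or without combination tumor 1, Bpgm and Ube2l6 no longer passed, Ube2l6 did not without combination tumor 2, and Aqp1 did not without CK 2, combination tumor 1 or combination tumor 2 (adjusted p of 0.053 to 0.089, edgeR). Epor, the erythropoietin receptor, had a log2 change of -0.77 (adjusted p = 0.060, edgeR). With 1 library left out its adjusted p ran from 0.044 to 0.240. It passed only without anti-PD-1 1, which is in neither group compared but shares the fit's estimate of the spread.

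Several erythroid genes of the 3 lists, among them Slc4a1, Gata1 and Klf1, were too low to test. Others passed the filter on low counts, such as Rhd and Ermap of the membrane list, named here after their values were seen. With the combination their log2 changes were -0.24 (adjusted p = 0.416) and -0.60 (adjusted p = 0.415, edgeR). The 14 untested genes of the 3 lists had 131 counts in all over the vehicle tumors (33 to 57 per tumor), 59 with PB-020 (13 to 28), 46 with anti-PD-1 (14 to 16) and 48 with the combination (14 to 19). Slc4a1, the band 3 anion exchanger of the red cell membrane, had 12, 21 and 6 counts in the CK tumors, 2, 2 and 0 with PB-020, 1, 0 and 2 with anti-PD-1, and 0, 3 and 1 with the combination. The erythroid transcription factor genes Gata1 and Klf1 had 4 and 12 counts over the vehicle tumors, and Klf1 had 15, 6 and 7 in the treated groups. The embryonic globins Hba-x and Hbb-y stood at 0 or 1 count in every library. No fold is given for the untested genes except that Slc4a1 had vehicle to treated ratios of 9.73 with PB-020 (95% counting interval 3.51 to 37.5), 12.9 with anti-PD-1 (4.11 to 65.4) and 9.64 with the combination (3.48 to 37.1), a gene singled out after its values were seen. Such intervals cover counting error in the counts summed over each group and not the spread between its tumors.

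Most genes of heme synthesis and iron supply other than Alas2 did not pass the test. All 18 listed genes were tested. With anti-PD-1, 1 was lower and 1 higher (median 0.10), and with the combination, 1 was lower and 2 were higher (median 0.08). Of all genes tested, 4.08% were lower and 4.18% higher with anti-PD-1, and 9.60% and 8.35% with the combination. Nothing is read from counts this small. Fech, ferrochelatase, which inserts iron into the heme ring in all tissues, fell by 0.43 with the combination (adjusted p = 0.0040), from 38.1 ± 2.10 to 27.9 ± 0.971 FPKM (SD, n = 3 each). Slc25a37, the mitochondrial iron importer mitoferrin, rose by 0.35 (adjusted p = 0.00955) and Abcb10, a mitochondrial transporter of the same route, by 0.27 (adjusted p = 0.037). The Abcb10 call was lost without any 1 of the vehicle tumors, PB-020 1, or combination tumor 1 or 3 (adjusted p of 0.052 to 0.114, edgeR). It was also lost with limma, and in edgeR with scaling by library size alone, a replicate block, or CK 3 and anti-PD-1 1 both left out (adjusted p of 0.055 to 0.063). The housekeeping synthase gene Alas1, picked after its values were seen because it pairs with Alas2, had 15.1 ± 0.544 FPKM with the vehicle and 15.5 ± 1.21 with the combination (log2 change 0.06, adjusted p = 0.817). Of the 10 tested genes of hemoglobin and heme clearance, 1 was lower with anti-PD-1 and 2 with the combination. These were Lrp1, the receptor for heme bound to hemopexin, which fell by 0.54 with the combination (adjusted p = 0.0044), and, with the combination, Slc48a1, a heme transporter of lysosomes, by 0.43 (adjusted p = 0.012). Cd163, the macrophage receptor for hemoglobin bound to haptoglobin, had 103, 95 and 77 counts with the vehicle, 79, 61 and 107 with PB-020, 101, 7 and 4 with anti-PD-1 and 28, 14 and 11 with the combination. Its log2 change with the combination was -2.33 (adjusted p = 0.118, edgeR). With 1 library left out its adjusted p ran from 0.00039 to 0.259. The lowest value came without anti-PD-1 1, the tumor that was highest in its group for Cd163 as for the globins. That tumor is in neither group compared but shares the fit's estimate of the spread.

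Markers of other cells that blood or vessels could bring were set beside the globins. Of all genes tested, 4.08% were lower and 4.18% higher with anti-PD-1, and 9.60% and 8.35% with the combination. Of 20 endothelial genes, all tested, 2 were lower with either anti-PD-1 or the combination, Cldn5 (log2 change -0.98 with the combination, adjusted p = 0.020) and Cd34 (-0.50, adjusted p = 0.0069), and the list's median was -0.35 with PB-020, -0.27 with anti-PD-1 and -0.37 with the combination. Its summed FPKM was 594 to 632 in the vehicle tumors, 549 to 599 with PB-020, 419 to 498 with anti-PD-1 and 431 to 450 with the combination. Most of this sum was Cd34, at a mean of 477 FPKM in the vehicle tumors, and the other 19 genes summed to 109 to 159, 97.7 to 113, 86.7 to 149 and 95.6 to 117 FPKM, so that without Cd34 all 4 groups overlapped. Of 10 pericyte genes, 4 were lower with the combination, and with anti-PD-1 3 were lower and 1 higher. Of 7 tested platelet and megakaryocyte genes, 1 was lower with the combination (Itga2b, -0.74, adjusted p = 0.045) and 1 with anti-PD-1 (Gp1bb). The summed FPKM of all 14 listed platelet and megakaryocyte genes overlapped between all groups, at 82.4 to 155 with the vehicle and 72.9 to 105 with the combination. Of 6 tested blood neutrophil genes none passed. Apart from CK 3, the summed FPKM of all 12 listed neutrophil genes was 13.9 and 16.1 in the vehicle tumors and 9.19 to 40.04 in the combination tumors. T cell genes went the other way, with 11 of 14 higher with anti-PD-1 and 12 of 14 with the combination (median 1.53). Macrophage genes had 0 of 10 called in either comparison. Of 12 hypoxia response genes, 4 were higher in each comparison. None of 15 skeletal muscle, 5 tested adipocyte or 2 tested other globin genes (Mb and Cygb) passed in either, 1 of 5 tested keratinocyte genes was higher in each, and 1 of 2 tested colorectal epithelial genes was lower with the combination. These list counts come from the main fit alone, and calls with anti-PD-1 were unstable. Over all genes 1120 passed with anti-PD-1 in that fit, 3 with only the groups compared and 137 without CK 2. The part of vessel, immune or muscle content in the globin levels was not tested.

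**Figure D4:**
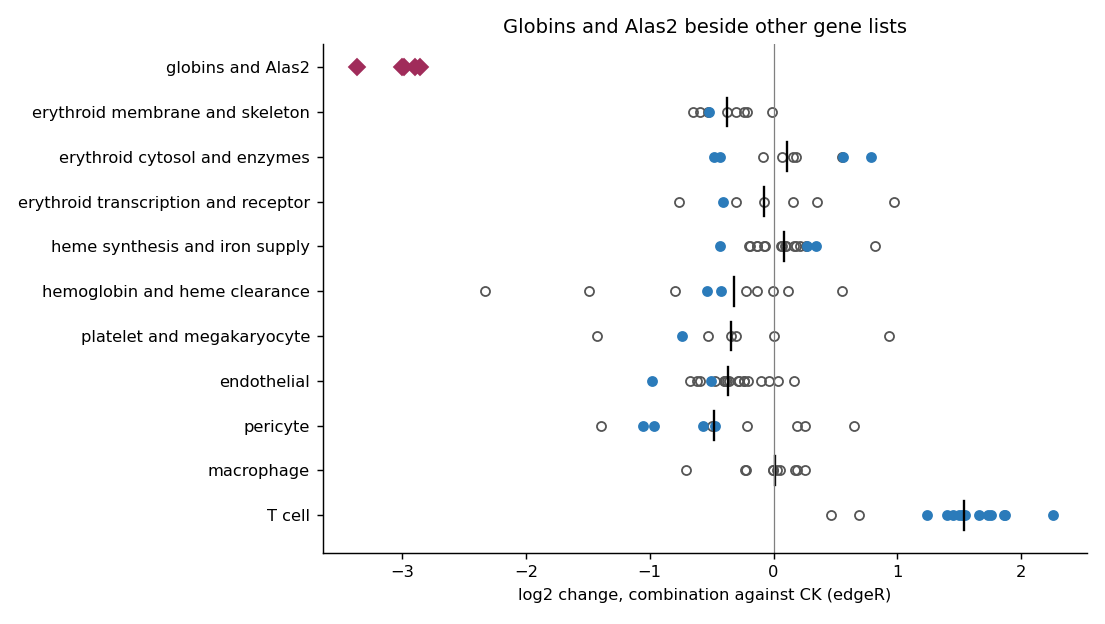
Log2 change of the combination against the vehicle for the 4 globins and Alas2 (diamonds, chosen for this contrast) and for the tested genes of 10 other lists (circles, filled where the adjusted p was under 0.05; the black bar is the median of all tested genes of the list; genes not reported here are not drawn). The diamonds lie between -2.86 and -3.36, and the T cell genes lie above 0.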

How the data were processed

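RNA of 12 ground MC38 tumors, 3 in each of 4 groups, was sequenced by the authors as pairs of 150-base reads, aligned with Bowtie2 and quantified with RSEM. The submitters' processing notes also name HISAT and the build GRCm38.p6, and tool versions are not given in the sources used here. The deposited expected counts are unnormalized RSEM estimates made by the authors and were rounded here before testing. The deposited FPKM values were scaled by the authors for gene length and library total, and the deposited TPM values were scaled by the authors to a fixed sum. The authors' group averages were not used. Groups came from the sample titles. Depth was 16545394 to 17217035 counts per library, so precision is limited mainly by the 3 tumors per group and, for genes under about 10 counts, by counting error.

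Counts were tested with edgeR 4.0.16 (R 4.3.3): TMM scaling, filterByExpr with a minimum count of 10 (13563 of 18211 genes), and robust quasi-likelihood tests on 1 fit of all 12 libraries with 4 group means. P-values were adjusted by Benjamini-Hochberg over all genes tested, and intervals of log2 changes are 95% intervals from the fit's standard error and degrees of freedom. The scripts were tested on simulated data. Alternatives were DESeq2 1.42.0, limma 3.58.1 on log2(FPKM + 1), other filters and scalings, fits of only the groups compared, a replicate block, summed globin copies, and libraries left out. The choice to leave out CK 3 and anti-PD-1 1 together was made after seeing the data. The 5 genes and all 17 gene lists (215 of 225 symbols in the table) were chosen with earlier results of these data known. From each list, up to 4 tested genes were named, those of lowest p between combination and vehicle, and the genes most like the 5 were the 10 with the highest correlation of log2 CPM (prior count 2) with their mean. Positions and promoter windows are from RefSeq on GRCm38.p6, which matched 18091 of 18211 genes and 5 of the 5 described, and coding sequences are from GENCODE transcripts. Results for some genes that these rules would name are not reported here.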

Additional observations from a re-analysis of the deposited data

How the results depend on the processing

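The number of the 5 genes past an adjusted p of 0.05 was 0 under each alternative, for PB-020 against the vehicle and for the combination against anti-PD-1. Leaving out 1 library at a time gave median log2 changes of -1.33 to -0.62 for PB-020, -3.07 to -2.02 for anti-PD-1 and -3.31 to -2.73 for the combination against the vehicle, and of -0.90 to 0.13 for the combination against anti-PD-1. With CK 3 and anti-PD-1 1 both left out, the median with anti-PD-1 was -3.43, and that of the combination against anti-PD-1 turned to 0.13. In the latter comparison, leaving out 1 library gave -1.10 to 0.45 for Alas2, -0.88 to 0.18 for Hba-a2 and -0.57 to 0.13 for Hbb-bt, with the highest value of each without anti-PD-1 1, and leaving out both libraries gave 0.45, 0.18 and 0.13. Hbb-bt also turned to 0.00012 with limma, 0.07 without anti-PD-1 3 and 0.03 without combination tumor 3. Hba-a1 and Hbb-bs stayed negative under each alternative, at -1.05 to -0.09 and -0.90 to -0.07 with 1 library left out. The causes were not tested.

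Among the other erythroid genes, the number higher with anti-PD-1 was 2 with DESeq2, 0 without a filter, 0 with only the groups compared, 2 without both libraries and 0 to 1 with 1 library left out, against 1. The number lower with anti-PD-1 was 0 with only the groups compared and 0 to 5 with 1 library left out (0 without CK 2, 1 without anti-PD-1 3), against 4. With the combination, the number higher was 1 with only the groups compared and 1 to 2 with 1 library left out, and the number lower was 4 to 8 with 1 library left out (8 without anti-PD-1 1). Over all genes, anti-PD-1 against the vehicle had 1120 calls, 3 with only the groups compared, 459 without both libraries and 137 to 1905 with 1 library left out (137 without CK 2, 1905 without anti-PD-1 2).

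The tumor numbers gave no sign of pairing. Deviations of same-numbered tumors had correlations of -0.21 to 0.29 over 18 pairs, with 2 above 0.1. Tumors of different number had -0.22 to 0.36 over 36 pairs, with 9 above 0.1. With so few tumors these values cannot show that the samples were unpaired. With the replicate number as a block, the medians were -0.81, -2.30 and -2.91 against the vehicle and -0.57 for the combination against anti-PD-1, with 870 and 2010 genes called for anti-PD-1 and the combination. Counts under about 10 per library limit Alas2 in the anti-PD-1 group and the untested erythroid genes.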
